A study of Mus musculus with 2 samples.

Results

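The RNA-rich pachytene spermatocytes were 218 of 2552 single cells from testes of 2 wild-type C57Bl/6J Crl mice, both 8 weeks old and untreated. Mouse 1 gave 120 of 1237 cells and mouse 2 gave 98 of 1315 cells. Part of the testis tissue of each mouse was dissociated with enzymes, strained to keep few somatic cells, and measured in 1 droplet library that tags the 3′ ends of transcripts with unique molecular identifiers (UMIs), so that 1 UMI stands for 1 captured molecule. Library totals were 27450497 UMIs (mouse 1) and 30302332 UMIs (mouse 2). The median cell had 17871 and 19184 UMIs, and the libraries shared 0 cell barcodes. The study had no treated or mutant group, so the comparisons are between groups of cells of the same animals.

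Members were chosen from measured values. The counts of each cell were scaled to the same total as CPM (the UMIs of a gene relative to all UMIs of the cell), transformed as the log2 of 1 plus CPM and standardised per gene over all cells. A class score was the mean over 4 genes, and 6 classes were scored. A member had its highest score in class P (Pou5f2, D030056L22Rik, Ppp1r27 and Tcam1) and held 30000 or more UMIs. The other classes were E (Tex101, Gml, Tex12 and Sycp1, genes of earlier spermatocytes), S (Ssxb1, Ssxb2, 1700001F09Rik and Iqca), R and T (genes of later spermatids) and L (Prm1, Prm2, Tnp2 and Klk1b8, genes of condensing spermatids). The 289 cells with P highest and fewer UMIs, 168 in mouse 1 and 121 in mouse 2, are called RNA-poor P cells here. Levels of these 24 genes and UMI counts therefore describe the selection and carry no test.

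Pachytene is the long stage of the first meiotic prophase in which homologous chromosomes are held together by the synaptonemal complex and crossovers mature. The unpaired X and Y chromosomes are packed into the sex body and transcribed little, a state called meiotic sex chromosome inactivation. At the same time the cell grows and transcribes many autosomal genes, among them genes whose proteins are used later, in meiotic division and in spermatids.

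By selection, members had many UMIs. Their UMI counts ran from 30374 to 124143 in mouse 1, with a median of 60278, and from 30447 to 154431 in mouse 2, with a median of 46226. The medians of the RNA-poor P cells were 15220.5 and 17125 UMIs. Members made up 9.70% of the cells and 27.2% of the UMIs of mouse 1, and 7.45% of the cells and 18.1% of the UMIs of mouse 2. Members were 41.7% of the cells with P highest in mouse 1 (exact 95% binomial interval 35.9% to 47.6%) and 44.7% in mouse 2 (38% to 51.6%), intervals that overlap and that cover counting error only. The class genes did not use the UMI count, and most cells with a high count were in class P in both mice only at the higher limits. Of the cells with 30000 or more UMIs, P was highest in 120 of 177 in mouse 1 but in 98 of 233 in mouse 2, where 55 were in class S, 26 in R, 24 in T, 22 in E and 8 in L. Among cells with at least 50000 UMIs, P was highest in 80 of 91 and in 45 of 72 cells. Among those with at least 80000 UMIs, it was highest in 24 of 25 and in 14 of 21.

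The P score had a median of 1.75 in the members of mouse 1 and 1.67 in those of mouse 2. The second-highest class was E in 114 of 120 and in 91 of 98 members. The gap between the highest and the second score had a median of 1.20 and 1.08, and 1 member, in mouse 2, had a gap below 0.1. In RNA-poor P cells the P score was lower, with medians of 1.04 and 0.873, and E was second in 78 of 168 and 55 of 121 cells while S was second in 44 and 35. At the UMI limit itself, the nearest members had 30374 and 30447 UMIs with P scores of 1.72 and 1.45, and the nearest cells outside had 29800 and 29496 UMIs with P scores of 1.70 and 1.51. The 18 members with fewer than 35000 UMIs had a median P score of 1.59 and a median E score of 0.43, and the 17 RNA-poor P cells with at least 25000 UMIs had 1.35 and 0.015. The UMI limit thus cut through a continuous range.

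The marker genes differed in how closely they followed the members. Pou5f2 encodes a POU-domain transcription factor of the testis, and Ccna1 encodes cyclin A1, which partners with Cdk kinases before the first meiotic division and was the only one of the 5 markers that the rule did not use. Their promoters are shown because these genes had the most different patterns of the 5: Pou5f2 stood highest in members and Ccna1 did not. The sequences are from RefSeq on GRCm38.p6 and run from 250 bases before to 50 bases after the gene start, at chr13:78024652-78024951 on the plus strand for Pou5f2 and at chr3:55055006-55055305 on the minus strand for Ccna1. Capitals mark AACNG, the core recognised by MYB factors such as the pachytene regulator Mybl1, or its reverse complement CNGTT.
Pou5f2: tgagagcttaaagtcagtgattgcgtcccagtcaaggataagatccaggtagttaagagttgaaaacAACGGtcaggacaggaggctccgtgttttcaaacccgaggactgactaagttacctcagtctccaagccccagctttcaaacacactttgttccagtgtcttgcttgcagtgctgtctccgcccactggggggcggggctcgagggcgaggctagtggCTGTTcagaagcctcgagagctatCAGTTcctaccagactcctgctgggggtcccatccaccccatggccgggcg
Ccna1: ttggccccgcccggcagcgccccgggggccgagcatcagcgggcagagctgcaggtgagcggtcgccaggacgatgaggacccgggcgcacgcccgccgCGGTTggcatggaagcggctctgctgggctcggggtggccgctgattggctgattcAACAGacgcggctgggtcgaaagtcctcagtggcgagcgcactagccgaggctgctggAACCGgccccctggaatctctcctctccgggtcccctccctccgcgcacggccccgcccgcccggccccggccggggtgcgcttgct
Each window held 3 matches. At least 1 match was present in 80.4% of 27025 promoters of this length, with a median of 2 matches, and the matches are a description only.

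Pou5f2 had 257 CPM in the members of mouse 1 and 241 CPM in those of mouse 2. It had 56.7 and 64.4 CPM in RNA-poor P cells, 19.4 and 42.5 CPM in E-highest cells, and 5.58 and 3.68 CPM in S-highest cells, so members lay above every other group in both mice. D030056L22Rik, a gene known by its clone name, had 344 and 324 CPM in members, 218 and 199 CPM in RNA-poor P cells and 156 and 174 CPM in E-highest cells. Ppp1r27 encodes a regulatory subunit of protein phosphatase 1. It had 169 and 140 CPM in members and 126 and 109 CPM in RNA-poor P cells, and Tcam1, a testis cell adhesion gene, had 225 and 187 against 201 and 167 CPM. For Tcam1 the level in RNA-poor P cells of mouse 1 was above that in members of mouse 2. Within each mouse, though, members were higher. Ccna1 had 372 and 293 CPM in members, 494 and 531 CPM in RNA-poor P cells, 345 and 321 CPM in S-highest cells and 60.7 and 56.1 CPM in E-highest cells. Its level in members was thus above E and below RNA-poor P cells in both mice, and overlapped with S.

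**Figure D1:**
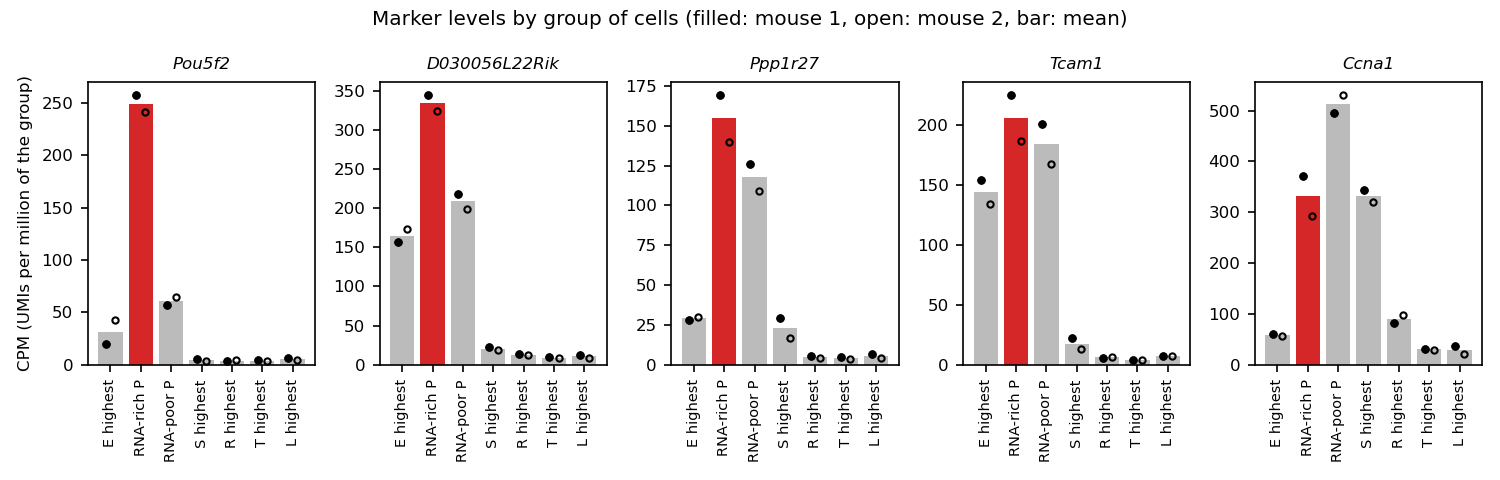
Levels of the 5 marker genes in 7 groups of cells, as CPM of the summed UMIs of each group (y axes start at 0); bars are means over both mice, filled points mouse 1, open points mouse 2. The 4 genes of the rule were highest in RNA-rich P cells, and Ccna1 was highest in RNA-poor P cells (494 and 531 CPM).

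Members were checked against gene lists of neighbouring stages and of somatic cells. The pachytene list (8 genes) summed to 15103 and 14962 CPM in members, 14541 and 15956 CPM in RNA-poor P cells, 10634 and 11552 CPM in E-highest cells and 12558 and 11967 CPM in S-highest cells, so both P groups overlapped above E and S. Ldhc, the germ cell lactate dehydrogenase, made up most of this sum and was the most abundant gene of the members, at 9943 and 10055 CPM. The other genes did not share 1 pattern. Hspa2, a chaperone needed to complete prophase, had 1413 and 1420 CPM in members and 1935 and 1883 CPM in E-highest cells. Tbpl1, a testis TBP-like factor, had 1251 and 1213 CPM in members and 1305 and 1204 CPM in S-highest cells. The leptotene and zygotene list summed to 199 and 191 CPM in members, 831 and 605 CPM in E-highest cells and 139 and 155 CPM in S-highest cells. In members its sum came mostly from Hormad1, of the chromosome axis (90.3 and 78.5 CPM), and Meioc, which acts on meiotic transcripts (90.1 and 96.7 CPM), while Stra8, which opens meiosis, had 0.54 and 0.18 CPM. The summed level of the round spermatid list (12 genes, such as Acrv1 and Spaca1) was 174 and 191 CPM in members against 3128 and 3723 CPM in S-highest cells. The Sertoli cell list summed to 20.9 and 14.4 CPM, with its defining gene Sox9 at 0 UMIs in both mice, and its most abundant gene Clu at 5.90 CPM in mouse 1 and Cst9 at 3.28 CPM in mouse 2. The spermatogonium list summed to 9.65 and 8.38 CPM and the Leydig cell list to 41.1 and 33.9 CPM. The macrophage list summed to 0.94 and 1.28 CPM, and the peritubular and endothelial list to 3.22 and 2.73 CPM. The globin list summed to 2.41 CPM in mouse 1 and 349 CPM in mouse 2. In mouse 2, 1 member with 92700 UMIs carried 1887 of the 1917 globin UMIs, and without it the sum was 5.56 CPM. A doublet caller marked 25 of all cells, 1 of them a member and 2 of them RNA-poor P cells.

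As a share of UMIs, transcripts from the X chromosome were scarcer in the members of both mice than in any other group. X-linked genes took 0.104% of the UMIs of members in mouse 1 and 0.10% in mouse 2 (mean 0.102 ± 0.0027%, SD, n = 2). The share was 0.285% and 0.241% in RNA-poor P cells, 0.395% and 0.235% in E-highest cells, 0.747% and 0.814% in S-highest cells and 1.32% and 1.34% in R-highest cells. The members of both mice lay below all these values, and the X share was 7.17 and 8.12 times higher in S-highest cells. Leaving out the genes of the rule, of which Ssxb1 and Ssxb2 are X-linked, changed the share of S-highest cells to 0.726% and 0.793% and that of members to 0.104% and 0.10%. With 2 mice the smallest p of a two-sided exact permutation test is 0.333, so the group values are given without a test. Single members ranged from 0.068% to 0.257% in mouse 1 and from 0.055% to 0.297% in mouse 2. Single S-highest cells had at least 0.258% in mouse 1, above every member, and at least 0.187% in mouse 2, where the ranges overlapped. Single E-highest and RNA-poor P cells overlapped with members in both mice, with medians of 0.202% and 0.153% for E and 0.201% and 0.220% for RNA-poor P cells.

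**Figure D2:**
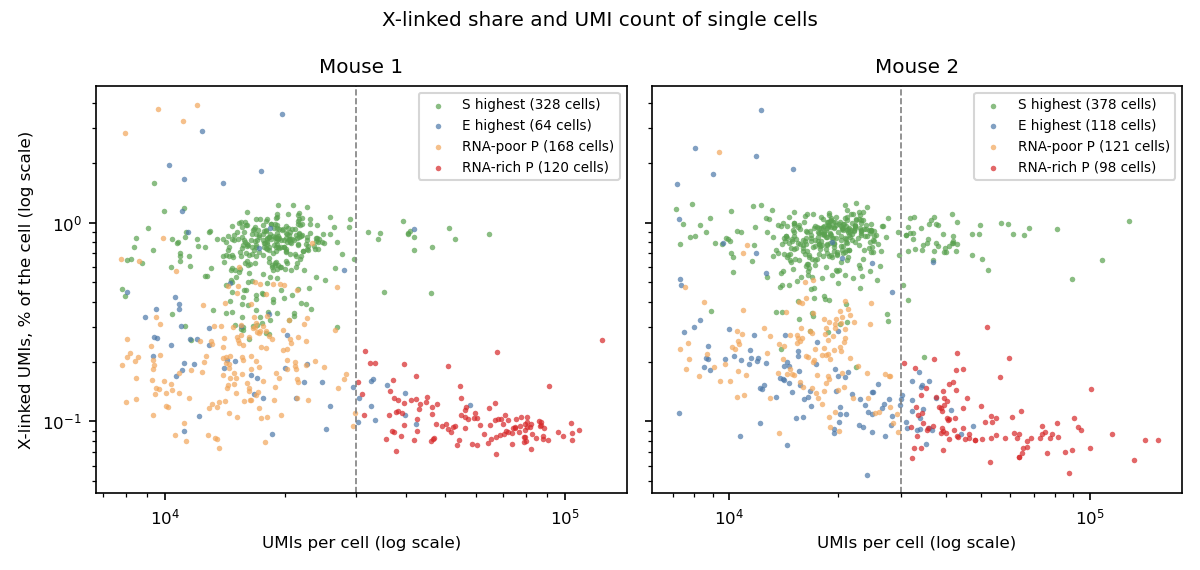
X-linked UMIs as a percentage of the UMIs of each cell (y axis, log scale) against its UMI count (x axis, log scale) for P, E and S cells, with 1 panel per mouse; the dashed line marks 30000 UMIs. RNA-rich P cells lay at the bottom, with medians of 0.097% and 0.092%, and S-highest cells had medians of 0.765% and 0.837%.

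Autosomes differed far less: the share of each autosome in members was 0.83 to 1.12 times that in E-highest cells, 0.90 to 1.07 times that in RNA-poor P cells and 0.83 to 1.15 times that in S-highest cells, over both mice. The Y chromosome gave 59 and 65 UMIs in all members together, or 0.000791% and 0.00118%, against 0.0551% and 0.0655% in S-highest cells. Of 214 X-linked protein-coding genes with at least 200 UMIs in all, 146 (68.2%) had their lowest level of the 7 groups in members in both mice, against 1179 of 8543 autosomal ones (13.8%). Of the X-linked UMIs that remained, pseudogenes took 48.5% and 39.7%, against 11.7% and 9.17% in S-highest cells. The most abundant X-linked row was Gm8648, a processed pseudogene, with 329 and 241 CPM in members and 318 and 212 CPM in S-highest cells. A processed pseudogene resembles its parent gene, and reads of the parent may be counted there, so its level is uncertain. Akap4, an X-linked gene of the sperm tail that is abundant in condensing spermatids, had 29.8 and 33.9 CPM in members against 220 and 263 CPM in S-highest cells. Ndufa1, an X-linked subunit of the respiratory chain, had 17.7 and 16 CPM against 282 and 139 CPM in E-highest cells. The E sums included 6 and 9 cells with over 1000 CPM of markers of Sertoli cells, Leydig cells or spermatogonia, and single E-highest cells reached an X share of 3.54% and 3.67%. The part of these cells in the E values was not tested. In molecules per cell the order was another one. Members had 64.7 and 56.2 X-linked UMIs per cell, above RNA-poor P cells with 44.3 and 40.9 in both mice. E-highest cells had 76.2 in mouse 1, above members, and 46.9 in mouse 2, below them. S-highest cells had 143 and 182.

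Several X-linked housekeeping genes have autosomal retrogenes, intronless copies that arose from their mRNA and that are expressed in the male germline. Because 3′ tags count molecules regardless of transcript length, both copies are set side by side in CPM without division by length. Reads that match several places can be dropped from the counts, so genes with near-identical copies may be undercounted. Cetn1, a centrin of the centriole and cilium, had 2602 and 2389 CPM in members, and its parent Cetn2 had 0.80 and 0.73 CPM. Rpl39l, a ribosomal protein gene, had 1014 and 952 CPM, and Rpl39 had 0.40 and 0.36 CPM. Pgk2, the germ cell phosphoglycerate kinase, had 239 and 244 CPM, and Pgk1 had 1.74 and 2.73 CPM. The autosomal copy thus carried nearly all of the signal of these pairs. The 11 X-linked parents summed to 8.58 and 8.93 CPM in members, 38.3 and 34.1 CPM in RNA-poor P cells, and 96.3 and 49.3 CPM in E-highest cells. The 11 autosomal copies summed to 5611 and 5343 CPM in members, 4948 and 5159 CPM in RNA-poor P cells, and 3687 and 3867 CPM in E-highest cells. G6pd2 was an exception among the pairs, with 3 UMIs and 1 UMI in all members.

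**Figure D3:**
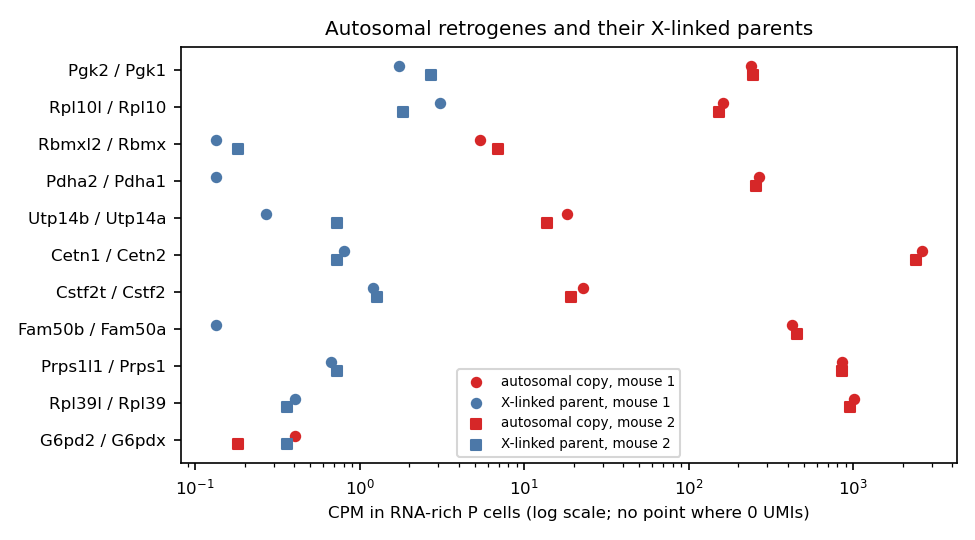
Levels of 11 autosomal retrogenes (red) and their X-linked parents (blue) in RNA-rich P cells, in CPM on a log x axis; circles are mouse 1, squares mouse 2, and a gene with 0 UMIs has no point. The autosomal copy was higher in 10 pairs, and in the G6pd2 pair both copies had under 1 CPM.

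The comparison of RNA-rich with RNA-poor P cells asked which transcripts take another share of the UMIs when cells of one class differ in UMI content. It was tested with edgeR's quasi-likelihood test on UMIs summed per mouse and group. Of 13807 genes tested, 1282 were higher in members (9.29%) and 1852 were lower (13.4%) at a Benjamini-Hochberg adjusted p under 0.05, and the median log2 fold change of all genes was 0.0015. The split depended on scaling and on the UMI limit. Higher genes were 40.9% of the calls. With library size alone they were 23.5% (702 higher, 2283 lower), and with DESeq2's size factors 23.0% (654 and 2186). These scalings moved the median of all genes to -0.13 and -0.12. With a UMI limit of 20000 higher genes were 49.6% of the calls (1364 and 1386), and with a limit of 50000 18% (243 and 1107). Changing the limit moves cells between the P groups. With 50000, 80 cells of mouse 1 and 45 of mouse 2 stayed RNA-rich, and the remaining members were added to the RNA-poor sums. Smaller differences at that limit thus do not show that the richest cells differ less. With the mouse as a block, 2015 genes were higher and 2238 lower. After thinning each cell to 5000 UMIs, 206 of 9472 genes were higher and 445 lower. Of the genes higher in members, 57.3% had their highest level of all groups in E-highest cells and 30.0% in members, against 27.2% and 8.44% of all genes tested. The share in members is raised by construction, since a gene higher in members cannot be highest in RNA-poor P cells. Of the genes lower in members, 75.7% were highest in class S, R, T or L, against 39.2% of all genes tested. This share is raised by construction too, since a gene lower in members cannot be highest there. Genes near 0 in members can also enter the test through a later group where they are high. RNA-poor P cells also had lower P scores, and their second class was S in 44 and 35, T in 19 and 19, and L in 22 and 10 of 168 and 121 cells. Assignment to class P at lower UMI counts and a difference in stage cannot be told apart in this contrast. Tnp1, a transition protein gene of condensing spermatids that was not in the rule, was present in every group. It had 332 and 269 CPM in members and 727 and 583 CPM in RNA-poor P cells (log2 fold change -0.97, adjusted p = 0.0035, edgeR). Per cell this was 20.6 and 15.1 UMIs in members and 11.3 and 9.88 UMIs in RNA-poor P cells. The part of free RNA in the result was not tested.

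Of the 12 genes with the largest increase in members, 10 were highest in E-highest cells in both mice. Cks2, which encodes a small subunit of Cdk complexes needed for the first meiotic division, had 406 and 405 CPM in members and 107 and 114 CPM in RNA-poor P cells (log2 fold change 2.02 ± 0.15, SE; adjusted p = 5.7e-09, edgeR). The groups did not overlap, and the level in E-highest cells was higher still, at 938 and 928 CPM. Ccne2, cyclin E2, had 25.2 and 37.3 against 9.59 and 5.36 CPM (2.15 ± 0.28, adjusted p = 1.4e-05, edgeR), but with a UMI limit of 50000 its log2 fold change was -0.054. Hmgb2, a chromatin protein, had 138 and 175 against 45.6 and 45.3 CPM (1.92 ± 0.18, adjusted p = 2.8e-07, edgeR). The poly(C)-binding protein gene Pcbp1, the decay helicase gene Upf1, Rfxap, Anp32b, Fbn2, Gm45109 and 2610001J05Rik were the others highest in E, with log2 fold changes of 1.76 to 2.30. With a UMI limit of 50000, which puts members below it into the RNA-poor sums, the increases were smaller. The log2 fold changes were 1.07 for Cks2, 0.84 for Hmgb2, 0.96 for Pcbp1 and 1.06 for Upf1. Fbn2, Anp32b and 2610001J05Rik were not called. Sap30, of the Sin3 histone deacetylase complex, and the non-coding 4930581F22Rik completed the set. 4930581F22Rik had 114 and 140 CPM in members, 46.0 and 37.1 CPM in RNA-poor P cells and 2.23 and 3.32 CPM in S-highest cells (log2 fold change 1.75 ± 0.20, adjusted p = 2.5e-06, edgeR).

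The 12 genes with the largest decrease were genes of later cells, except Gm8138, which was highest in RNA-poor P cells. Gm8138 had 0.67 and 2.91 CPM in members and 45.6 and 68.3 CPM in RNA-poor P cells (log2 fold change -4.93 ± 0.38, adjusted p = 1.5e-08, edgeR). Its level in members rested on 5 and 16 UMIs, and its log2 fold change was -4.15 without the RNA-rich sum of mouse 1, -6.15 without that of mouse 2 and -3.37 with a UMI limit of 20000. Speer4e, of a rodent multicopy family that may be undercounted where copies are near-identical, had 4.29 and 6.38 against 122 and 125 CPM (-4.41 ± 0.20, adjusted p = 1.0e-11, edgeR). Spag6, a protein of the central pair of the sperm axoneme, had 3.89 and 7.29 CPM in members, 53.7 and 51.2 CPM in RNA-poor P cells, and 614 and 709 CPM in S-highest cells. Spaca1, an acrosomal membrane protein, had 7.37 and 12.2 against 63.6 and 77.5 CPM (-2.73 ± 0.20, adjusted p = 5.7e-09, edgeR). Bora, an activator of the Aurora A and Plk1 kinases at entry into division, had 16.9 and 15.5 against 65.2 and 64.4 CPM (-1.85 ± 0.19, adjusted p = 8.0e-07, edgeR). The others were BC061237, Prr22, Spatc1l, the X-linked Tsga8, 1700001J03Rik, BC049762 and Ccer1, with log2 fold changes from -3.93 to -1.76. With the limit of 20000 the decreases were smaller but still called, at -3.01 for Speer4e, -2.31 for Spag6, -2.02 for Spaca1 and -1.25 for Bora.

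X-linked genes were called lower far more often than other genes in this comparison. Of 399 X-linked genes tested, 206 (51.6%) were lower and 1 was higher in members, with a median log2 fold change of -2.09. Of 13307 autosomal genes, 1626 (12.2%) were lower and 1280 higher, with a median of 0.024. A gene near 0 in members can pass the filter on low counts through another group where it is high. With no filter, 226 of 1129 X-linked genes (20%) were lower, with a median of -1.0, beside 1778 of all 27256 genes. Without the 6 P-highest cells that carried markers of another cell type, 168 of 366 X-linked genes were lower, with a median of -1.77. Of all genes 1690 of 13526 were lower in that fit. After thinning to 5000 UMIs 36 of 219 X-linked genes were lower, with a median of -2.12, beside 445 of all 9472 genes. Without the RNA-poor sum of mouse 1 the X-linked median was -1.76. Among the 8 X-linked parents of retrogenes that could be tested, 4 were lower (Rpl39, Cetn2, Prps1 and Rpl10), with a median of -2.08. With the mouse as a block 5 were lower, with Cstf2 added (adjusted p = 0.034, edgeR). Rpl10 was not called without the 6 cells (adjusted p = 0.39, edgeR) or with a UMI limit of 50000 (0.54). None of the parents was called after thinning, and Prps1 could not be tested there. The log2 fold changes then were -5.20 for Rpl39, -4.71 for Cetn2 and -3.10 for Rpl10, against -3.65, -2.90 and -1.47 before thinning. Of the 11 autosomal copies, 3 were higher (Pdha2, Rbmxl2 and Fam50b), with a median of 0.30, beside 9.29% of all genes. With the mouse as a block 6 were higher and 1 lower, and with a limit of 50000 none of the 3 was called (adjusted p = 0.15 for Pdha2, 0.17 for Rbmxl2 and 0.066 for Fam50b, edgeR). Rbmxl2 and Fam50b were not called with DESeq2 either (adjusted p = 0.10 and 0.071) or after thinning (0.55 and 0.60, edgeR). Fam50b was not called with library size alone (adjusted p = 0.20, edgeR) or without the 6 cells (0.13), and Cstf2t was called lower with library size alone and with DESeq2.

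Counts on the lists that follow stand beside 9.29% of all genes higher and 13.4% lower. Of 9 tested synaptonemal complex genes, 1 was higher: Sycp2, a lateral element protein, with 236 and 245 against 181 and 182 CPM (0.55 ± 0.13, adjusted p = 0.0045, edgeR). The median of this list was 0.25. Sycp2 was not called after thinning (adjusted p = 0.14, edgeR) or with a UMI limit of 50000 (log2 fold change 0.21, adjusted p = 0.40), and with the mouse as a block 2 genes were higher. Of 18 recombination genes, 3 were higher (Rnf212, a crossover regulator, Hsf2bp and Psmc3ip) and 1 was lower (Tex15), with a median of 0.37. Psmc3ip was not called with library size alone (adjusted p = 0.078, edgeR) or with DESeq2 (0.053). None of the 3 higher genes was called with the limit of 50000 or after thinning. Tex15 was not called after thinning either (log2 fold change -2.98, adjusted p = 0.11, edgeR). Under the block 5 were higher. Of 8 cohesin genes, which hold sister chromatids together, 3 were lower, with a median of -0.29. Rec8, the meiotic kleisin, had 1.07 and 0.73 CPM in members and 11.1 and 8.29 CPM in RNA-poor P cells (-3.21 ± 0.38, adjusted p = 4.2e-06, edgeR). Smc3 had 15.5 and 18.9 against 57.9 and 59 CPM, and the X-linked Stag2 was the other, which was not called with the limit of 50000 (adjusted p = 0.16, edgeR). Under the block 2 cohesin genes were higher. Rec8, Smc3 and Tex15 transcripts were far higher in S-highest cells, with means of 79.4, 221 and 78.5 CPM. Of 8 genes of the sex body and the DNA damage response, the kinase gene Atr was higher (94.2 and 113 against 80.9 and 74.6 CPM) and Brca1 and the X-linked Scml2 were lower, with a median of 0.086. Atr was not called with library size alone (adjusted p = 0.076, edgeR) or with the limit of 50000 (0.41), nor was Brca1 with that limit (0.097). DESeq2 did not call Atr either (adjusted p = 0.11), and after thinning no gene of this list was called, while Scml2 then differed by -0.49 on the log2 scale (adjusted p = 0.83, edgeR). With the mouse as a block 2 genes of this list were higher.

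Genes of the piRNA pathway, which makes the small RNAs that silence transposons and that accumulate in pachytene, had 7 of 19 tested genes higher and 1 lower, with a median of 0.34, beside 9.29% of all genes higher. None of the 7 was called with a UMI limit of 50000, and 2 (Piwil1 and Pld6) after thinning. Piwil1, which binds pachytene piRNAs, had 186 and 220 CPM in members and 105 and 110 CPM in RNA-poor P cells (1.06 ± 0.15, adjusted p = 4.3e-05, edgeR), but its log2 fold change was 0.26 with the limit of 50000 (adjusted p = 0.38). Its level in E-highest cells was 737 and 726 CPM, so members lay between. Tdrd5 (1.21 ± 0.20), Pld6 (1.1 ± 0.17), Tdrd1 (0.72 ± 0.19), Fkbp6 (0.62 ± 0.19), Mael (0.47 ± 0.15) and Tdrd12 (0.45 ± 0.16) were the others. Tdrd7 was lower, with 147 and 123 against 215 and 204 CPM, but not with the limit of 50000 (adjusted p = 0.091, edgeR). Without the 6 cells with markers of other cell types 5 genes were higher and 2 lower, and Mael (adjusted p = 0.063) and Tdrd12 (0.086) were not called. DESeq2 did not call Tdrd1 (adjusted p = 0.072), Mael (0.091), Fkbp6 (0.11) or Tdrd12 (0.20). With library size alone, 4 were higher and 2 lower (Tdrd7 and Ddx4; the block also gave 2 lower), and Mael, Fkbp6 and Tdrd12 were not called, at adjusted p = 0.077, 0.091 and 0.18 (edgeR).

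Of 22 genes of the meiotic divisions, 3 were higher and 4 lower, beside 9.29% and 13.4% of all genes, with a median of -0.14. The block gave 4 higher, with Aurkc added (adjusted p = 0.020, edgeR), and 7 lower, and library size alone also gave 7 lower. Higher were Cks2, the spindle checkpoint gene Mad2l1 (8.17 and 10.0 against 3.45 and 2.44 CPM) and Fbxo43, which restrains the anaphase-promoting complex (39.0 and 34.2 against 21.1 and 15.1 CPM). Lower were the cyclin genes Ccnb1 and Ccna1, the kinase gene Plk1 and the phosphatase gene Cdc25c. Ccnb1 had 209 and 184 CPM in members and 434 and 485 CPM in RNA-poor P cells (-1.08 ± 0.16, adjusted p = 4.3e-05, edgeR). Plk1 had 179 and 157 against 300 and 345 CPM (-0.79 ± 0.14, adjusted p = 0.00031, edgeR). Ccna1 had the smallest of the 4 decreases (-0.48 ± 0.17, adjusted p = 0.044, edgeR). With the limit of 50000 Cks2, Ccnb1 and Plk1 were still called, while Mad2l1 (adjusted p = 0.19), Fbxo43 (0.062), Ccna1 (0.18) and Cdc25c (0.12) were not. After thinning Cks2, Ccnb1 and Plk1 were called as well. Mad2l1 (adjusted p = 0.42, edgeR), Fbxo43 (0.28), Ccna1 (0.24) and Cdc25c (0.12) were not called then. The levels of both cyclin genes in E-highest cells were lower than in members, at 76.9 and 46.3 CPM for Ccnb1. The diplotene and division list holds 8 of these same 22 genes and is no separate evidence. Each of the 8 had a lower mean in members, with a median of -0.43. The 4 called were those named above as lower (6 were called with the mouse as a block, 6 with library size alone). The higher genes Cks2, Mad2l1 and Fbxo43 are not on this shorter list.

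Of 14 transcription regulators, Sox30 was higher (not after thinning, adjusted p = 0.19, edgeR) and the X-linked Taf7l lower, and with the mouse as a block 2 were higher. Mybl1, the MYB factor that drives pachytene genes, had 46.9 and 78.3 CPM in members and 44.1 and 76.6 CPM in RNA-poor P cells, which differed by less than the mice did. Crem, which later activates spermatid genes, had 305 and 309 against 333 and 363 CPM and was not called. Of 11 genes of RNA storage and translation, Ybx3, an mRNA-binding Y-box protein, was higher (0.70 ± 0.15, adjusted p = 0.0021, edgeR), but not with the limit of 50000 (0.13). With the mouse as a block 3 were higher, with Ybx2 (adjusted p = 4.7e-05) and Ybx1 (0.0012) added. Ybx2 had 542 and 1613 CPM in members and 397 and 846 CPM in RNA-poor P cells, and Ybx1 had 745 and 2655 against 580 and 2154 CPM, so both were higher in members within each mouse. All 12 round spermatid genes were lower, with a median of -1.37, and 10 of 11 condensing spermatid genes, with a median of -0.99. After thinning 5 and 7 of these were called, and with the limit of 50000 Tex21 (adjusted p = 0.46, edgeR) and Spem1 (0.050) were not called. These lists include genes found in every group, as Tnp1 above. The leptotene and zygotene list had 1 of 6 lower, and the pachytene list had 1 of 8 higher and 1 lower.

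The summed levels of the Sertoli and Leydig lists were also lower in members. Of 11 Sertoli cell genes 8 were lower (9 with the block), with a median of -3.79. Of 7 Leydig cell genes 4 were lower (6 with the block). The Sertoli list summed to 427 and 39.5 CPM in RNA-poor P cells, while the median RNA-poor P cell had 0 CPM and the median member 20.8 and 14.4 CPM: 4 cells of mouse 1 and 1 of mouse 2 had over 1000 CPM of this list, and 1 of these also had over 1000 CPM of the Leydig list. Its most abundant gene there was Clu, with 151 and 15.1 CPM, and Sox9 had 3.45 and 0 CPM. No member passed this limit for these lists. Leaving out these 5 cells and the member rich in globin, 1107 genes were higher and 1690 lower, and 2 Sertoli and 1 Leydig gene were still called. The 3 globin genes called higher in members were not called, or could not be tested, without these 6 cells.

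**Figure D4:**
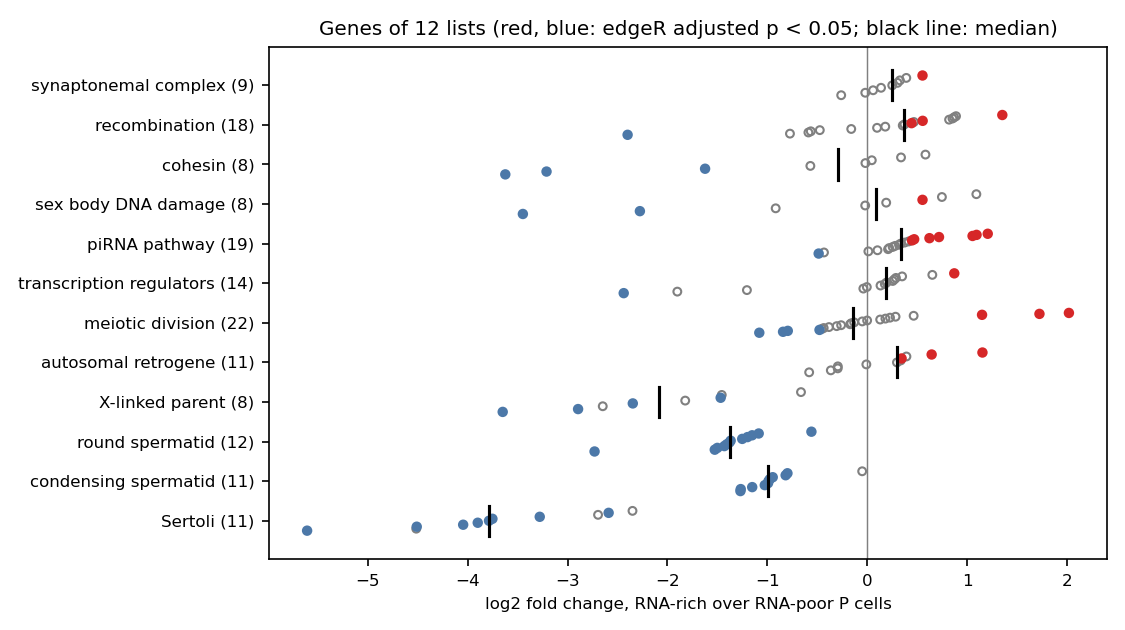
log2 fold changes between RNA-rich and RNA-poor P cells (x axis; right is higher in RNA-rich cells) for each tested gene of 12 lists, with the number tested in parentheses. Filled points passed an adjusted p of 0.05 in edgeR, open points did not, and black lines are medians; piRNA pathway genes had a median of 0.34, X-linked parents -2.08 and round spermatid genes -1.37.

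Against E-highest cells, members are described without a test, because class genes chose both groups. Of 6054 genes with at least 20 CPM in either group in both mice, 699 were at least 2-fold higher in members in both mice (11.5%) and 1201 were at least 2-fold lower (19.8%), with a median log2 ratio of -0.11. Genes of synapsis were lower: 7 of 8 synaptonemal complex genes were at least 2-fold lower, with Sycp3, the main lateral element protein, at 408 and 373 CPM in members and 1558 and 1060 CPM in E-highest cells. Syce1, of the central element, was the exception, with 1132 and 1102 against 753 and 858 CPM. Tex12 and Sycp1, which the rule used to choose E-highest cells, belong to the same complex. The selection thus favoured a lower level of this list in members. Of 18 piRNA pathway genes 9 were at least 2-fold lower and none higher, with a median of -1.20. Division genes went the other way. Of 20 considered, 7 were at least 2-fold higher and 2 lower, with a median of 0.56, and Aurka, the spindle pole kinase, had 575 and 513 CPM against 163 and 143 CPM.

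The genes with the largest ratios over E had levels in members between 22.4 and 144 CPM. Gem, a small GTPase gene, had 28.5 and 24.2 CPM in members and 1.62 and 1.27 CPM in E-highest cells, and Gfi1, a zinc finger repressor, had 23.1 and 22.4 against 0.81 and 1.27 CPM. Ddit4l, a regulator of TOR signalling, had 144 and 115 against 15.4 and 12.7 CPM, and the others were Sptbn4, Emx2, Pard6g, 4930478P22Rik and 4930511A02Rik. Largest in the other direction was the set Prss50, Maz, 4632427E13Rik, Rpl36a, Ube2e2, Phax, Dazl and Clu. Dazl, an RNA-binding regulator of early germ cells, had 7.10 and 11.1 CPM in members and 430 and 248 CPM in E-highest cells. Clu is on the Sertoli list, and 4 and 6 E-highest cells of mouse 1 and mouse 2 had over 1000 CPM of that list.

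Against S-highest cells, 955 of 6057 genes were at least 2-fold higher in members in both mice (15.8%) and 1329 at least 2-fold lower (21.9%), again as a description, with a median of 0.17. Mllt10, a chromatin protein gene, had 601 and 644 CPM in members against 27.6 and 26.8 CPM in S-highest cells, and Ube2t, a ubiquitin-conjugating enzyme of DNA repair, had 237 and 218 against 8.93 and 9.37 CPM. The demethylase gene Phf2 had 95.8 and 91.1 against 2.55 and 2.96 CPM, and 4933412L11Rik, 4930581F22Rik, Sap30, Pcbp1 and the adrenergic receptor gene Adrb1 were the others with the largest ratios. All 12 round spermatid genes were at least 2-fold lower, with a median of -4.57. Of 20 division genes, 8 were at least 2-fold higher and 1 lower, and of 17 piRNA pathway genes 5 were higher and none lower. The named genes lowest relative to S were 4921504E06Rik, Gm6588, Spag6, BC061237, 4930579F01Rik, 1700016G14Rik, Prr22 and 1700041C23Rik, with S-highest levels 80.8 to 164 times those of members.

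Few genes peaked sharply in members. Of 4880 genes with at least 20 CPM in members of both mice, 830 (17%) had their highest level of the 7 groups there in both mice. With the genes of the rule left out, the level in 25 of these was over 1.5 times that of the next group in both mice. In 8 it was over 2 times. Apart from the genes of the rule, the sharpest peak was that of the antisense RNA gene Gm31105. It had 103 and 83.4 CPM in members and 38 and 28.3 CPM in RNA-poor P cells, the next group. The next were 1700039I01Rik, RP24-444M16.3, Plpp4, a lipid phosphatase gene with 20.5 and 22.6 CPM, 4930470P17Rik, 4930581F22Rik, Gm26706 and Gipc2, a scaffold protein gene with 52.4 and 46.6 CPM. They were followed by 4930515G01Rik, the exchange factor gene Arhgef15, the centromere protein gene Cenpo and Gm35584.

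Members were not uniform, and the levels of some genes followed the E score. Members were divided by E score into low, middle and high bins of nearly equal size over both mice. The low bin held 39 and 34 cells, the middle bin 48 and 24, and the high bin 33 and 40. Ccnb1 had 376 and 350 CPM in the low bin, 158 and 191 CPM in the middle bin and 90.6 and 36.2 CPM in the high bin. Ccna1 had 509 and 475, then 350 and 299, then 245 and 131 CPM. Both cyclin genes thus fell in order as the E score rose, in both mice, and Plk1 and Aurka had the same order. Piwil1 went the other way, with 109 and 122, then 188 and 165, then 273 and 351 CPM, as did Cks2, with 225 and 218, then 432 and 338, then 578 and 624 CPM. Sycp3 changed little, from 387 and 347 to 441 and 419 CPM, and Ldhc stayed between 9614 and 10284 CPM. The X share was 0.115% and 0.115% at low, 0.096% and 0.096% at middle and 0.103% and 0.091% at high E score. Across cells, Spearman's rho of the E score with the CPM was -0.65 and -0.79 for Ccna1, 0.61 and 0.73 for Piwil1 and 0.68 and 0.77 for Cks2 (120 and 98 cells, each set of 1 library; a description). The E score was part of the rule, so these orders carry no test.

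**Figure D5:**
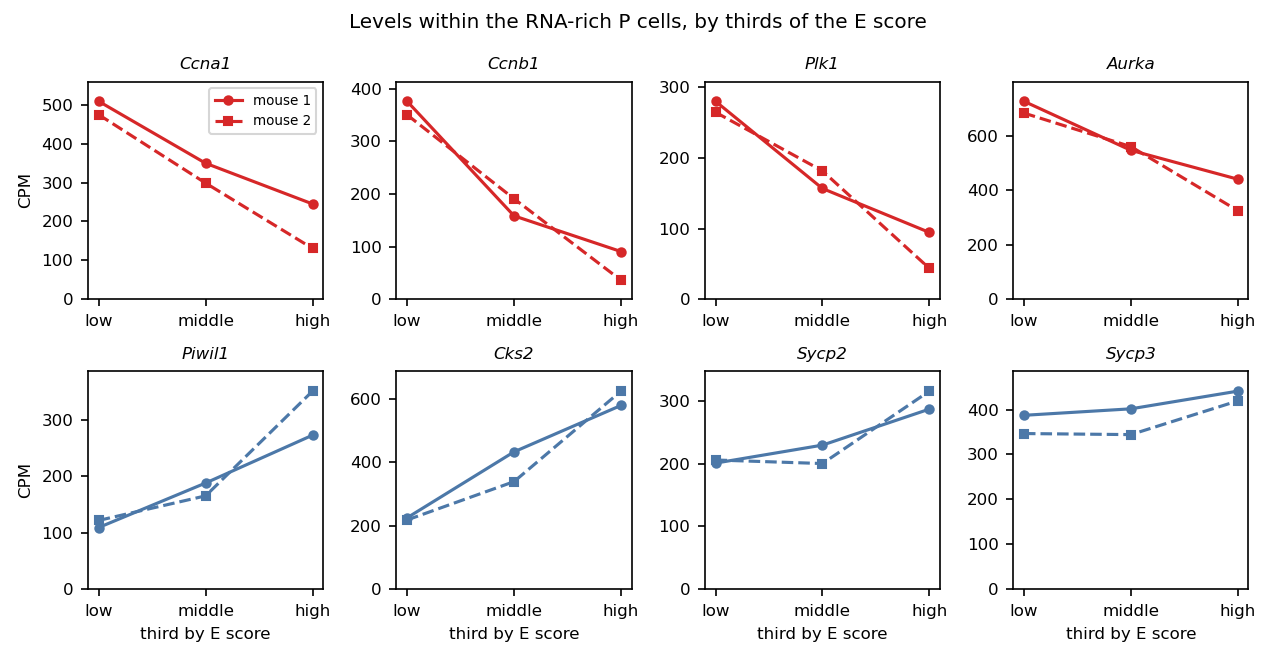
Levels of 8 genes in the RNA-rich P cells divided into 3 bins by E score (x axis, low to high), in CPM of the summed UMIs of each bin (y axes start at 0); solid lines are mouse 1, dashed lines mouse 2. Ccna1, Ccnb1, Plk1 and Aurka decreased from the low to the high bin in both mice, and Piwil1, Cks2 and Sycp2 were highest in the high bin.

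Among genes with at least 20 CPM in the low or the high bin in both mice, the 10 with the largest ratios each way are named. Higher at low E score were A930018P22Rik, Bora, Rrm2 (a subunit of ribonucleotide reductase), 1700067K01Rik, Ccnb1, Rnpep, Spc25 (a kinetochore protein), Jam2, the kinesin gene Kif22 and Cdc25a, a phosphatase that activates Cdk kinases. A930018P22Rik had 190 and 161 CPM at low and 26.6 and 11.9 CPM at high E score, and Cdc25a had 120 and 108 against 33.0 and 27.3 CPM. Higher at high E score were Ccne2, Gm42740, Gm21269, Esf1 and Rrs1 (both of ribosome assembly), Hmgb2, the kinase gene Mark2, Gm14244, Fbn2 and Cnot3. Ccne2 had 5.51 and 6.35 CPM at low and 56.1 and 83.3 CPM at high E score, and Hmgb2 had 56.8 and 79.7 against 227 and 298 CPM.

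The UMI count of members did not follow this order, and the median was highest in the middle bin, at 66976 and 59830 UMIs, against 46455 and 42235 in the low bin and 58496 and 44788 in the high bin. The E score and the UMI count had a Spearman's rho of 0.11 and -0.017 across the cells of mouse 1 and mouse 2. In mouse 1, Cks2 had 216 CPM in members with 30000 to 45000 UMIs, 527 CPM from 45000 to 60000, 541 CPM from 60000 to 80000 and 267 CPM above, and in mouse 2 it had 407, 438, 476 and 317 CPM. Ccnb1 had 419, 96.9, 106 and 293 CPM in mouse 1 and 268, 156, 99.1 and 178 CPM in mouse 2. Both genes thus turned between the middle and the highest UMI counts, in opposite directions. The X share was 0.125% and 0.118% in the members with the fewest UMIs and 0.102% and 0.085% in those with the most. The rho of X share with UMI count was -0.39 and -0.40, and a cell's share is also less precise at low counts.

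Members did not express more genes at equal depth. Before thinning, the median number of genes with a UMI was 6864.5 and 6412.5 in members and 4167 and 4368 in RNA-poor P cells. After each cell was thinned to 5000 UMIs, which left out no cell, members had a mean of 2249 and 2270 genes (mean 2260 ± 15, SD, n = 2). E-highest cells had 2375 and 2361, RNA-poor P cells 2324 and 2292, S-highest cells 2365 and 2389, and L-highest cells 1519 and 1478. Members thus lay below E, RNA-poor P and S cells in both mice; the closest pair was 2270 genes in members and 2292 in RNA-poor P cells of mouse 2. The 50 most abundant rows took 14.7% and 14.8% of the UMIs of members. After Ldhc, these were led by Meig1, a regulator of manchette formation, with 8170 and 7652 CPM, Lyar, a nucleolar protein, with 5789 and 5655 CPM, and Rsph1, of the axonemal radial spoke, with 4534 and 4630 CPM. The mitochondrial share was 0.196% and 0.234% in members (mean 0.215 ± 0.027%, SD, n = 2), 0.525% and 0.272% in RNA-poor P cells and 0.807% and 0.832% in E-highest cells. Single RNA-poor P cells reached 11.7% and 5.59%, and the median cell had 0.215% and 0.180%, against 0.185% and 0.195% in members, so by medians the order of the P groups differed between the mice.

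The members of both mice had similar profiles. Of 5631 genes with at least 200 UMIs over the members of both mice, 95.9% differed by less than 0.5 on the log2 scale between the mice. At least 2-fold higher in mouse 2 were 30 genes and in mouse 1 a single one, Hist2h2aa1 (66.9 against 28.6 CPM). Apart from the globin genes, carried by 1 cell, the largest differences were in Nkx2-4 (7.77 against 43.2 CPM), Otud3 (8.98 against 40.4 CPM), Rnf187 (82.1 against 322 CPM) and Ybx1, an mRNA-binding Y-box gene (745 against 2655 CPM). Ybx2, its germ cell relative that stores spermatid mRNA, had 542 against 1613 CPM. Ybx1 showed the same gap in E-highest cells (1029 and 3036 CPM) and in RNA-poor P cells (580 and 2154 CPM), so the gap between mice was present in those groups too.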

How the data were processed

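Testis cells of 2 wild-type mice were measured with 1 Chromium 3' v2 library each. The authors demultiplexed with bcl2fastq 2.17.1.14 and Cell Ranger 2.0.0, aligned to repeat-masked GRCm38 (mm10) with added RepBase elements, counted UMIs and downsampled reads of mouse 2, and deposited whole UMI counts without further normalization: 51868 rows (50686 genes, 1182 repeats) by 2552 cells. The barcode ending was matched to the mouse number. Positions came from GENCODE M21 for 50376 genes. Downsampling equalises reads per cell but not UMIs per cell, so levels were compared as CPM.

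UMIs were summed per mouse over 7 groups of cells, giving 14 sums, and 1 contrast was tested with edgeR 4.0.16 (R 4.3.3; TMM, filterByExpr, quasi-likelihood test, Benjamini-Hochberg), with 1 spread shared by all groups and the 24 rule genes left out of counts. p-values rest on 2 animals a group. DESeq2 1.42.0, library size alone, a mouse block, no filter, thinning, other UMI limits, no doublets (scanpy 1.11.5 scrublet) and leaving out sums were alternatives. Sums of the same mouse come from 1 animal; deviations of RNA-rich sums correlated with those of RNA-poor, E and S sums at 0.10, 0.081 and 0.19 over 13831 genes. On simulated data for this contrast (13831 genes, 200 changed 4-fold), edgeR recovered 162 with 4 false calls and DESeq2 147 with 5. The simulated sums were independent, had a fixed spread and differed between groups only in the changed genes. Real groups differ in many genes and share animals, so the simulation does not give the error rate of the real contrast.

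Named genes were the 5 markers, the 12 largest changes each way past the threshold with the same direction in both mice and 100 UMIs or more in the higher group of each mouse (no repeats, mitochondrial or rule genes), the 8 largest ratios each way against E and S at 20 CPM or more (pseudocount 1 CPM), the 12 sharpest peaks and the list genes. Genes compared between mice or bins were chosen after their values were seen. The members, the rule and the gene lists were chosen with earlier results of these data known. Calculations used Python 3.11.15, numpy 2.4.6, scipy 1.17.1 and pandas 2.3.3; thinning used 42 as seed.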

Additional observations from a re-analysis of the deposited data

How the results depend on the processing

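The count of 1282 genes higher in RNA-rich P cells was 2015 with the mouse as a replicate block, 702 with library size alone, 654 with DESeq2, 206 after thinning each cell to 5000 UMIs (9472 genes tested) and 243 with a UMI limit of 50000. The count of 1852 lower genes was 445 after thinning and 1107 with the limit of 50000, and stayed within 1.5 times under the block (2238), library size alone (2283), DESeq2 (2186), no filter (1778) and a limit of 20000 (1386). Without 1 of the 4 sums, higher genes ranged from 440 to 731 and lower genes from 1060 to 1422; both were lowest without the RNA-poor sum of mouse 1, where the lone sum is assumed to vary like the other groups. No gene changed direction between calls in any of these fits. The limit of 50000 also moves members with fewer UMIs into the RNA-poor sums. Leaving out 6 cells with markers of other cell types, an alternative chosen after seeing the data, gave 1107 and 1690.

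Of 24 named genes under 13 alternatives, 306 of 312 values kept direction and call. These genes were picked as the largest called changes of the same counts, which favours that outcome. Of all 1282 higher genes, 202 were still called after thinning and 227 with the limit of 50000. Of all 1852 lower genes, 428 and 1046 were. Ccne2 reversed with the limit of 50000, at -0.054, and Fbn2, Anp32b and 2610001J05Rik lost their calls with that limit or after thinning; the cause was not tested. Of 73 called list genes, 65 were still called with library size alone, 61 with DESeq2, 73 with the block and 43 with the limit of 50000. Without the 6 cells 57 were still called, and after thinning, which leaves fewer UMIs, 30. Hbb-bs was not called without the 6 cells, and its sign changed there.

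The X share of 0.102% was 0.106% as a mean of single cells, 0.114% with a limit of 20000 and 0.096% with 50000. Genes per cell were 2741 at 7000 UMIs. The share of P-highest cells with 30000 or more UMIs was 43.2%, and 40.8% with Ccna1 in the P score. Mouse by mouse, these were 0.10% to 0.104%, 2249 to 2270 and 41.7% to 44.7%. The mitochondrial share of 0.215% moved by less than the spread between the mice. Depth limits low genes: Rec8, near 1 CPM, rested on 8 and 4 UMIs over all members.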
